A study of Mus musculus with 3 samples.

Results

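The nuclear-encoded subunits of the mitochondrial respiratory chain were examined in the 2 Foxp3 CUT&RUN libraries of mouse bone marrow-derived macrophages. Members were the protein-coding genes on chromosomes 1 to 19 and X whose RefSeq symbol carries a subunit stem: Nduf followed by a, b, c, s or v, Sdha to Sdhd, Uqcr or Cyc1, Cox4 to Cox8, or Atp5. This gave 89 of 21627 protein-coding genes, with 41 in complex I, 4 in complex II, 9 in complex III, 18 in complex IV and 17 in complex V. Macrophages were grown in medium conditioned with M-CSF, fixed in 0.1% formaldehyde for 2 min, and profiled with an antibody to the forkhead transcription factor Foxp3 (clone FJK-16s), which guides a nuclease that releases DNA fragments around its target. The series holds 3 samples, Foxp3 replicates 1 and 2 and an isotype IgG library whose values were not used here, and the labels state no genotype, strain or age. Its title names stimulation with brain-derived damage signals, and the labels do not assign that treatment to libraries. Foxp3 is best known from regulatory T cells, and nothing in the files used here measures its level in these macrophages or the expression of any gene.

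The respiratory chain carries electrons from NADH (complex I) and succinate (complex II) through ubiquinone, complex III and cytochrome c to oxygen at complex IV. The protons pumped on the way drive ATP synthesis by complex V. Most subunits are encoded in the nucleus and imported, and a small set, including the catalytic core of complex IV, is encoded by mitochondrial DNA. In macrophages, electron flow through the chain is known to change with inflammatory activation, and succinate oxidation at complex II is part of that change.

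The libraries differed in the number of peaks. Replicate 1 held 33294105 fragments and 556535 peaks, and replicate 2 held 34898401 fragments and 95135 peaks. The fragment size was 130 bp in replicate 1 and 180 bp in replicate 2, and the smallest pileup listed was 10 and 13 fragments. Fold enrichment is the authors' value for each peak, the pileup at its summit over a background estimated from the same library, and it was ranked only within a list. Peaks were also listed at marker genes of macrophages (4 of 7 in both replicates, Csf1r, Spi1, Cd68 and Mertk) and of T cells (2 of 4, Cd4 and Cd8a).

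Peaks lay at the ends of most respiratory chain genes. The term site is used for a gene with any peak reaching into the 1 kb on either side of either annotated end. In replicate 1, 84 of 89 members had a site (94.4%), where 86.1% of all protein-coding genes did. In replicate 2, 67 members had one (75.3%, against 63.3% of all genes). A site in both replicates was found at 66 of 89 members (74.2%, 95% exact binomial interval 63.8% to 82.9%). The share was 62.2% of all genes and 66.5% of the 20162 genes left without olfactory and vomeronasal receptor genes. The interval covers counting error only, genes are not replicates, and the difference from all genes was not tested. In replicate 1 only there were 18 members with a site, in replicate 2 only there was 1, and 4 had none. The share with a site in both replicates was 78.0% in complex I (32 of 41), 100% in complex II (4 of 4), 77.8% in complex III (7 of 9), 50% in complex IV (9 of 18) and 82.4% in complex V (14 of 17). The exact intervals of the complexes overlap, from 26% to 74% for complex IV and from 56.6% to 96.2% for complex V, and differences between them were not tested.

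**Figure D1:**
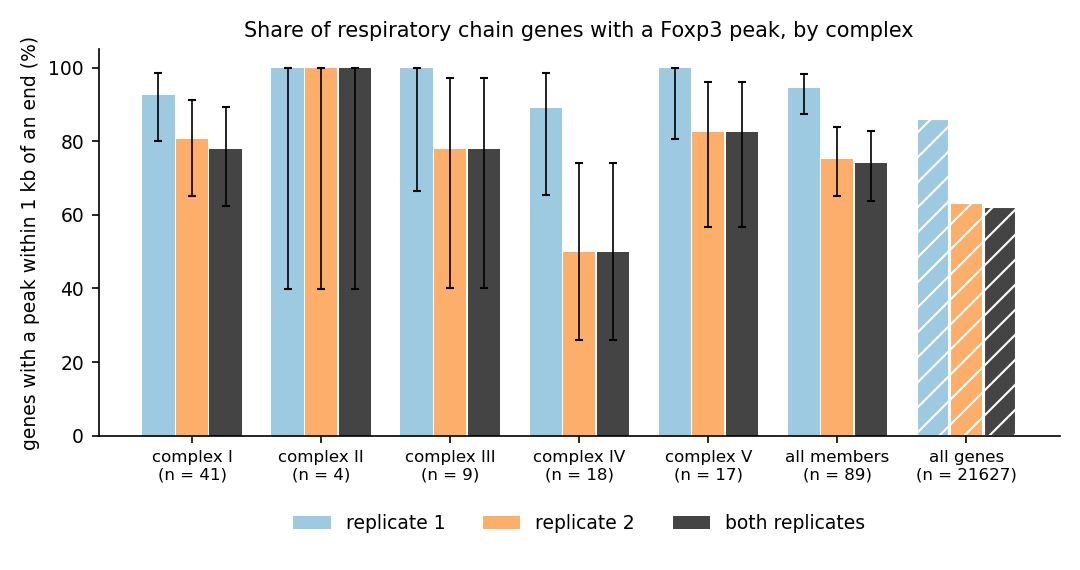
Share of genes (%, y axis from 0) with a site in replicate 1, replicate 2 and both (a peak in the 1 kb around an end), for each complex, all 89 members and all 21627 protein-coding genes (hatched); black bars are 95% exact binomial intervals for the members. The share with a site in both replicates is 50% in complex IV and 4 of 4 genes in complex II, an order that changes when peaks at 1 gene only or starts only are counted.

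Respiratory chain genes often had a close neighbour, and the share of sites went with it. An end of another protein-coding gene lay within 1 kb of an end of 50 of 89 members (56.2%), against 25.1% of all genes. Among those 50 members, 40 had a site in both replicates (80.0%), and the share for all genes with such a neighbour was 80.5%. Among the 39 members without a close neighbour the figure was 26 (66.7%), against 56.1% of such genes. Of the 67 strongest replicate 2 peaks at members, 33 (49.3%) were also at an end of another gene, against 22% over all genes with a site in that library. When peaks at the ends of more than 1 gene were left out, 37 of 89 members kept a site in both replicates (41.6%), below the 49.3% of all genes. At a shared peak the member and its neighbour cannot be told apart.

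Peaks at members were about as strong as those at other genes. Over the strongest peaks of the members, the median fold was 11.01 in replicate 1 (84 members, 3.17 to 30.2), and 5.89 in replicate 2 (67 members, 2.65 to 12.4), against 10.1 and 5.36 over all genes with a site. The middle 50% of members spanned 7.14 to 15.1 in replicate 1, then 4.93 to 6.71 in replicate 2, and both ranges hold the median of all genes. A fold of at least 10 in replicate 1 was reached at 46 of 89 members (51.7%, against 43.5% of all genes), and a fold of at least 5 in replicate 2 at 46 (51.7%, against 37.3%). Where both libraries had a site, the strongest peaks overlapped by at least 1 bp at 55 of 66 members (83.3%, against 77.5% of all such genes), and their summits lay within 200 bp at 41. At 7 members the strongest peaks were at different ends of the gene. The fold was higher in replicate 1 at 64 of the 66, and the exceptions were Ndufa1 and Ndufa8. Over all genes the median was also higher in replicate 1 (10.1 and 5.36). The share of all genes with a higher fold in replicate 1 was not counted.

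**Figure D2:**
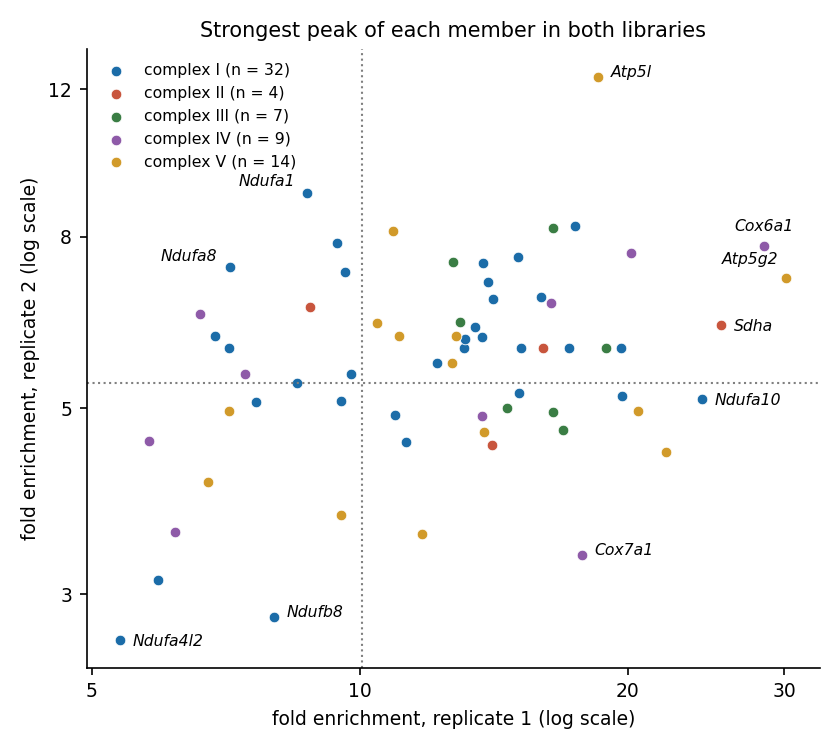
Fold enrichment of the strongest peak in replicate 1 (x, log scale) and replicate 2 (y, log scale) for the 66 members with a site in both, coloured by complex; dotted lines mark the medians over all protein-coding genes, 10.1 and 5.36. Atp5l is highest in replicate 2 at 12.4 and Atp5g2 highest in replicate 1 at 30.2.

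Peaks were more often at the transcription start than at the far end. Starts were taken from a RefSeq promoter table that holds 71 of the 89 members. Of these, 52 had a peak within 1 kb of a start in both replicates (73.2%, against 61.1% of 17273 genes), 66 in replicate 1 (93.0%, against 82.2%) and 53 in replicate 2 (74.6%, against 62.4%). At the other end of the gene the counts were 13 in both (18.3%, against 13.4%), 42 in replicate 1 (59.2%, against 54%) and 14 in replicate 2 (19.7%, against 15.9%). In the first 200 bp after the start there were 38.0 summits per 100 members in replicate 1 and 33.8 in replicate 2, from 27 and 24 summits, against 27.0 and 19.97 per 100 over all genes. Between 400 and 600 bp after the start, replicate 2 had none at members and 6.17 per 100 over all genes. In both libraries the bin with the most summits was the same for the members and for all genes, and the shapes of the profiles were not compared by a test.

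**Figure D3:**
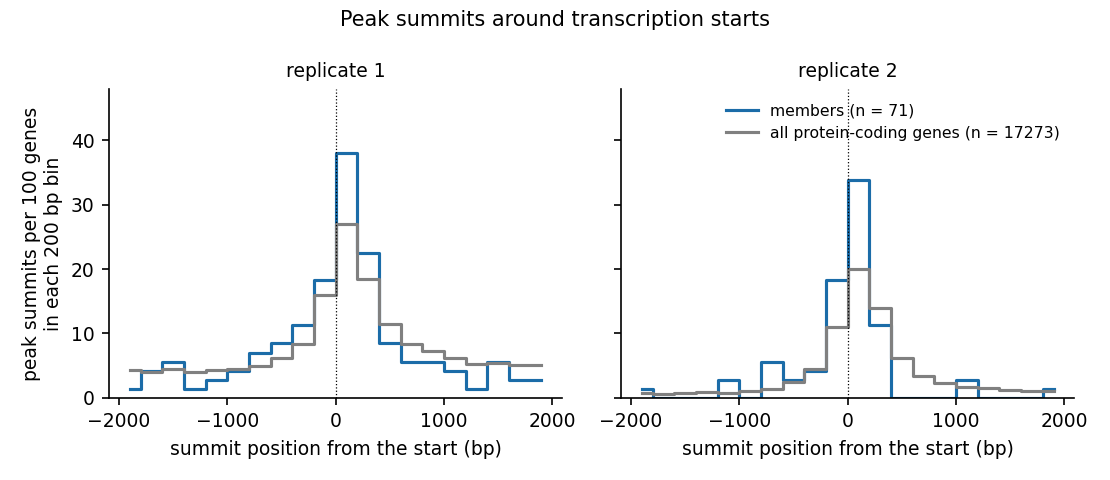
Peak summits per 100 genes (y) in bins of 200 bp by distance from the transcription start (x, bp, positive in the direction of transcription) for 71 members (blue) and all 17273 genes in the promoter table (grey), in replicate 1 (left) and replicate 2 (right). Both libraries are highest in the bin from 0 to 200 bp, at 38.0 and 33.8 for the members.

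Promoter sequences of 8 members, chosen after their values were seen, are shown because the peaks described for these genes lie over or near them: the strongest gene in complexes III, IV and V, the strongest in complex I and II that the table holds, the promoter shared with a regulator (Atp5j), and examples of a start inside the annotated gene (Cox7a2) and of a start with no replicate 2 peak (Cox8b). Each runs 5′ to 3′ on the gene's own strand, from 250 bases before to 50 bases after the start, from RefSeq on GRCm38.p6, the assembly of mm10. All 8 genes are on the minus strand: Ndufs5 at chr4:123718137-123718436, Sdha at chr13:74350191-74350490, Uqcrfs1 at chr13:30545267-30545566, Cox6a1 at chr5:115348909-115349208, Atp5l at chr9:44920693-44920992, Atp5j at chr16:84835576-84835875, Cox7a2 at chr9:79759804-79760103 and Cox8b at chr7:140900397-140900696. Capitals mark, on either strand, the NRF1 word (GCGCA, any base, GCGC), the ETS word CCGGAAG, the YY1 word AAGATGGC and the forkhead words TGTTT followed by AC, GC or TC.
Ndufs5: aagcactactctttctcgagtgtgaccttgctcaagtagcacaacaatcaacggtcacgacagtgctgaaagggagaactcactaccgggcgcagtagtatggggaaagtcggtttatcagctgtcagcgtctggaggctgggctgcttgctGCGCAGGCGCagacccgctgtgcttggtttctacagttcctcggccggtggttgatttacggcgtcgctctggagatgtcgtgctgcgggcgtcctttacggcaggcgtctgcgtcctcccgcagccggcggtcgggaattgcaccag
Sdha: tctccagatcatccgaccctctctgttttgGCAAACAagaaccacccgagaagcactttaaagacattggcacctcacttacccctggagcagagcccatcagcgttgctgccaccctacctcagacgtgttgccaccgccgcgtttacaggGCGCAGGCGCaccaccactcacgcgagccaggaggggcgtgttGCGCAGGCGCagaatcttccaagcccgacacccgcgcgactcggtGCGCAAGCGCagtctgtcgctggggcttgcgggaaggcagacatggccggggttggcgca
Uqcrfs1: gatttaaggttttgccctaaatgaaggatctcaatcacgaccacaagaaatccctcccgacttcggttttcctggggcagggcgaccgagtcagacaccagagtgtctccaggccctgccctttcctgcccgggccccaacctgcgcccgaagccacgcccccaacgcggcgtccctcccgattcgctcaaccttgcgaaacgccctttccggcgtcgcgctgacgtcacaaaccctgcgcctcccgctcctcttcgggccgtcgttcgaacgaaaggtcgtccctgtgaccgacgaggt
Cox6a1: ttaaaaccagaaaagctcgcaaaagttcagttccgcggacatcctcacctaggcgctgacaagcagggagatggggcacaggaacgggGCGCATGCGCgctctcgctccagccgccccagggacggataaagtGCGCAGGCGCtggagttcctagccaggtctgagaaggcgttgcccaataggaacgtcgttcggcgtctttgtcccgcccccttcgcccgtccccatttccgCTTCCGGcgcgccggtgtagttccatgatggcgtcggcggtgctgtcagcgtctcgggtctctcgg
Atp5l: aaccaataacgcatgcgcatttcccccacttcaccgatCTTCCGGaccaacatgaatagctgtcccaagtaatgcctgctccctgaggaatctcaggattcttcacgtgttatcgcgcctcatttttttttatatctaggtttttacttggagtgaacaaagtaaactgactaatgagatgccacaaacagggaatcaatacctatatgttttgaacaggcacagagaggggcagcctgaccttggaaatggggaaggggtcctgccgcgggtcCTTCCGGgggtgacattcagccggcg
Atp5j: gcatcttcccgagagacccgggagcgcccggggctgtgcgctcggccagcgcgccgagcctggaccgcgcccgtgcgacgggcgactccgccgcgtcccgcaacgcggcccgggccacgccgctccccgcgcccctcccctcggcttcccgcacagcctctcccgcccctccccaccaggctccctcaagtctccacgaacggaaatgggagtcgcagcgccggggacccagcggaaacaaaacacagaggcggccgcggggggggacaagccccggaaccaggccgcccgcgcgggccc
Cox7a2: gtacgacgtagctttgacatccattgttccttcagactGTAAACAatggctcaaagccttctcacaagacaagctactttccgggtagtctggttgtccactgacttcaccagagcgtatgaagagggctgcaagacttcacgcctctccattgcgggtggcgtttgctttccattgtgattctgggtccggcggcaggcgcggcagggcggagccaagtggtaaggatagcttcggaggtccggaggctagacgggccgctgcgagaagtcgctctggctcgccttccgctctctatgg
Cox8b: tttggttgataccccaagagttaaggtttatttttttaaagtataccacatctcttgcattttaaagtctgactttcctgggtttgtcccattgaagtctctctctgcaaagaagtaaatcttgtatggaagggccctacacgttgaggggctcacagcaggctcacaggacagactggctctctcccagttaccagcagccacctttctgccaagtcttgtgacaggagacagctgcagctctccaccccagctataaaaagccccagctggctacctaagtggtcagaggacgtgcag

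In these stretches, Sdha held 3 NRF1 words, beginning at positions -98, -55 and -10 from its start, and 1 forkhead word beginning at -220. Cox6a1 held 2 NRF1 words and 1 ETS word, Ndufs5 held 1 NRF1 word, and Atp5l held 2 ETS words. Cox7a2 held 1 forkhead word, and none of these words was in the Uqcrfs1, Atp5j or Cox8b stretch. Atp5j had 43 CpG dinucleotides in its 300 bases and Cox8b had 2.

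Across the 71 promoters, words of the factors known to regulate respiratory genes were more frequent than in all promoters, and forkhead words as a group were not. These differences were not tested. The NRF1 word was in 16 of 71 promoters (22.5%, against 6.68% of all promoters), and its form with T in the middle was in 5 (7.04%, against 1.34%). The ETS word, bound by factors such as GABPA, was in 16 (22.5%, against 12%), the YY1 word in 9 (12.7%, against 3.25%) and the ERR word AAGGTCA in 8 (11.3%, against 4.06%). The CCAAT word was in 30 (42.3%, against 39.4%) and the GC box GGGCGG in 29 (40.8%, against 46.9%). The forkhead word TGTTTAC was in 1 promoter (1.41%, against 2.98%). The word TGTTTGC was in 2 (2.82%, against 4.6%). The word TGTTTTC was in 5 (7.04%, against 6.58%), and any of the forkhead words was in 8 (11.3%, against 13.3%). The form of the NRF1 word with T is contained in the general one, both strands were read, and a match is no more than a match of letters. Of the 71 members, 52 had a site in both replicates at their ends (62% of all genes in the table). Of the 16 with the NRF1 word, 13 did (88.7% of all genes with the word), and of the 8 with a forkhead word, 7 did (44.2% of all genes with one). These differences were not tested. A peak lay over the 300 bases themselves at 56 members in replicate 1, 46 in replicate 2 and 42 in both. The members' promoters held a median of 19 CpG dinucleotides, 20 in those with a site in both replicates and 16 in the others. Over all genes the medians were 20 with a site and 3 without.

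Complex I, which oxidises NADH, is built of a catalytic core conserved from bacteria and of accessory subunits. A site in both replicates was found at 5 of 7 core genes and 27 of 34 accessory genes. By the mean of the percentiles within the peak lists, the 3 highest genes were accessory subunits. In replicate 1 alone Ndufa10, Ndufc2 and the core subunit Ndufs1 ranked above all 3, and in replicate 2 alone Ndufa1 did, with the core subunit Ndufv2 above Ndufs5 and Ndufc1. Ndufb9 (chr15:58933801-58939516) had a strongest peak of fold 17.5 in replicate 1, set against 8.25 in replicate 2 (12.9 ± 6.52, mean and SD, n = 2), with pileups of 93 and 41 fragments, and the same peak was at an end of Tatdn1. Ndufs5 (chr4:123712710-123718186) had folds of 15.1 and 7.57, with summits at -104 and 51 bp from its start, counted in the direction of transcription and in the order of the replicates. Ndufc1 (chr3:51405479-51408955) had folds of 13.8 and 7.44, with summits at 39 and -30 bp. All 3 were higher in replicate 1, and the peaks of the libraries overlapped at each.

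Among the core subunits, Ndufv1, which holds the NADH binding site and its flavin, had folds of 11.3 and 4.56, and its partner Ndufv2, an iron-sulfur subunit, had 9.44 and 7.87. Ndufs1, the largest iron-sulfur subunit, had folds of 19.7 and 5.17. These strongest Ndufs1 peaks did not overlap, and both were also at an end of Eef1b2. Ndufs3 had 7.12 and 5.89, at a peak shared with Kbtbd4. The core subunits Ndufs7 and Ndufs8, which carry iron-sulfur clusters near the ubiquinone site, had a site in replicate 1 only. Their strongest peaks had folds of 5.94 and 6.97, both at the far end of the gene. Weaker replicate 1 peaks lay within 1 kb of their starts, of fold 2.45 at Ndufs7 and 5.90 at Ndufs8.

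Of the accessory subunits, Ndufa10 had the highest replicate 1 fold of the complex, 24.3, with 5.13 in replicate 2. Ndufab1, the mitochondrial acyl carrier protein, had 15.2 and 5.89, and Ndufs4, whose loss impairs complex I in mice, had 13.5 and 6.25. Ndufa1 (8.73 and 9.03) and Ndufa8 (7.15 and 7.36) were the members with the higher value in replicate 2, and both share the peak with a neighbour, Rnf113a1 and Morn5. Ndufb6 (15.98 and 6.79) and Ndufa5 (17.2 and 5.89) had their strongest replicate 1 peak at the start and their strongest replicate 2 peak at the far end. The lowest replicate 2 folds of the complex were at Ndufa4l2 (5.38 and 2.65), Ndufb8 (8.02 and 2.82) and Ndufa11 (5.93 and 3.12). The other accessory genes with a site in both were Ndufa3, Ndufa4, Ndufa6, Ndufa12, Ndufa13, Ndufb1, Ndufb2, Ndufb3, Ndufb4, Ndufb5, Ndufb7, Ndufb11, Ndufc2 and Ndufv3.

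The accessory genes without a site in both replicates were Ndufa2 (9.67), Ndufa7 (5.74), Ndufa9 (4.82) and Ndufb10 (4.78), each with a peak in replicate 1 only at the fold given. Ndufs6 was the 1 member with a peak in replicate 2 alone, of fold 4.87 with 25 fragments, with its summit at -49 bp from the start and also at an end of Mrpl36. Ndufb4b and Ndufb4c had no peak in either list, while Ndufb4, at another position, had folds of 13.7 and 6.08. Ndufb4b and Ndufb4c are short genes of 471 and 485 bp named as copies of Ndufb4, so their values are uncertain, and whether fragments from them map to 1 place was not tested.

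Complex II oxidises succinate and feeds the electrons to ubiquinone, and it is also the succinate dehydrogenase of the citric acid cycle. All 4 of its genes had a site in both replicates, and the strongest peaks overlapped at each. Sdha (chr13:74322255-74350240), the flavoprotein, had folds of 25.5 and 6.28 (15.9 ± 13.6, mean and SD, n = 2), with pileups of 106 and 31 fragments. Its summits lay at 50 and -20 bp from the start, and Ccdc127 has an end at the same peak. Sdhb (chr4:140961271-140979198), the iron-sulfur subunit, had 8.79 and 6.61, at 107 and 5 bp after its start and at no other gene. The membrane anchors Sdhc and Sdhd had 16.1 and 5.89, and 14.1 and 4.52. The Sdhd peak was also at ends of Timm8b and Nkapd1. Sdha was highest in replicate 1 and Sdhb in replicate 2, so the order of the genes was not the same in both libraries.

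Complex III passes electrons from ubiquinol to cytochrome c. A site in both replicates was found at 7 of 9 genes, with overlapping peaks at all 7. Uqcrfs1 (chr13:30540312-30545316), the Rieske iron-sulfur protein, had folds of 16.5 and 8.20, with pileups of 118 and 42 fragments and summits at -34 and 162 bp from its start. Uqcrc1 (chr9:108936648-108949641), a core protein, had 12.7 and 7.46, and its partner Uqcrc2 (chr7:120635189-120659523) had 18.9 and 5.89. The haem protein Cyc1, cytochrome c1, had 16.5 and 4.95, and the hinge protein Uqcrh 12.97 and 6.32. Uqcrb had 16.9 and 4.71 and Uqcrq 14.7 and 5.00, both small subunits, and both share the peak with a neighbour. Uqcr10 (10.1) and Uqcr11 (6.72), also small subunits, had a site in replicate 1 only.

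Complex IV, cytochrome c oxidase, reduces oxygen, and its nuclear-encoded subunits surround a core made in the mitochondrion. A site in both replicates was found at 9 of its 18 genes, the lowest share of the complexes by this count. The order was not stable: with peaks at 1 gene only, complex IV stood at 44.4%, above complex I (39%) and complex V (35.3%), and at starts only it stood at 61.5%, above complex III (60%). Cox6a1 (chr5:115345652-115348958) had folds of 28.5 and 7.81 (18.1 ± 14.6, mean and SD, n = 2), with pileups of 120 and 52 fragments. Cox7a2l (chr17:83501917-83514333), also called supercomplex assembly factor 1, which joins complexes III and IV, had 20.2 and 7.66, at 52 and 58 bp after its start. Cox7c (chr13:86044798-86046795) had 16.4 and 6.68, at 219 and 321 bp after its start. At all 3, the peaks overlapped and were at no other gene. Cox4i1 had 13.7 and 4.90, Cox5b 7.43 and 5.50, Cox6c 6.61 and 6.48, and Cox6b1 5.79 and 4.57. The Cox4i1 peak was also at ends of Emc8 and Gm27021, and the strongest Cox6b1 peaks did not overlap. Weaker peaks of both libraries lay at the start of Cox6b1, with folds of 3.81 and 3.93.

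Several complex IV subunits exist as a broadly expressed form and a form restricted to muscle, testis, lung or hypoxia. Of the 8 restricted forms in the list, which include Ndufa4l2, 3 had a site in both replicates (37.5%, interval 8.52% to 75.5%). Of the other 81 members 63 did (77.8%), and 62.2% of all genes did. In replicate 1 all 8 restricted forms had a site, against 93.8% of the other members and 86.1% of all genes. In replicate 2 only 3 did (37.5%), against 79% and 63.3%. These differences were not tested. Without the restricted forms, complex IV stood at 7 of 11 (63.6%). Cox6a2, the heart and muscle partner of Cox6a1, had a fold of 9.87 in replicate 1, shared with Itgad, and no replicate 2 site. Cox7a1, the muscle partner of Cox7a2, had 17.8 at its start in replicate 1 and 3.34 at its far end in replicate 2. Cox4i2, the lung form, had 6.20 and 3.56, with the strongest peaks at opposite ends, and Cox4i1 had 13.7 and 4.90. By any pair of peaks at an end, the replicates overlapped by at least 50% of both lengths at Cox4i2 and not at Cox4i1. The forms Cox6b2 (3.89), Cox7b2 (4.23), Cox8b (3.63) and Cox8c (7.41) had a site in replicate 1 only. Ndufa4l2 had 5.38 and 2.65, and its partner Ndufa4 had 9.79 and 5.50. Ndufa4 is now placed in complex IV, and both genes were counted in complex I here because complexes were assigned by symbol alone.

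The broad forms were not uniform either. Cox7b (3.17, 11 fragments) and Cox8a (8.03, 48 fragments) had a site in replicate 1 only, and the Cox7b value was the lowest replicate 1 fold of all members. Cox5a and Cox7a2 had no peak at their annotated ends in either library. Their listed transcription starts lie inside the annotated gene, 3904 bp for Cox5a and 11569 bp for Cox7a2 from the end, and both libraries had a peak there. At the start of Cox7a2 the folds were 17.5 and 8.84, with summits at -35 and 64 bp from it. At the start of Cox5a they were 10.1 and 6.91, with summits 398 and 258 bp after it. Counting a peak at a start or an end, 69 of 89 members had a site in both replicates. This wider rule can only raise the count, and the share of all genes under it was not counted.

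**Figure D4:**
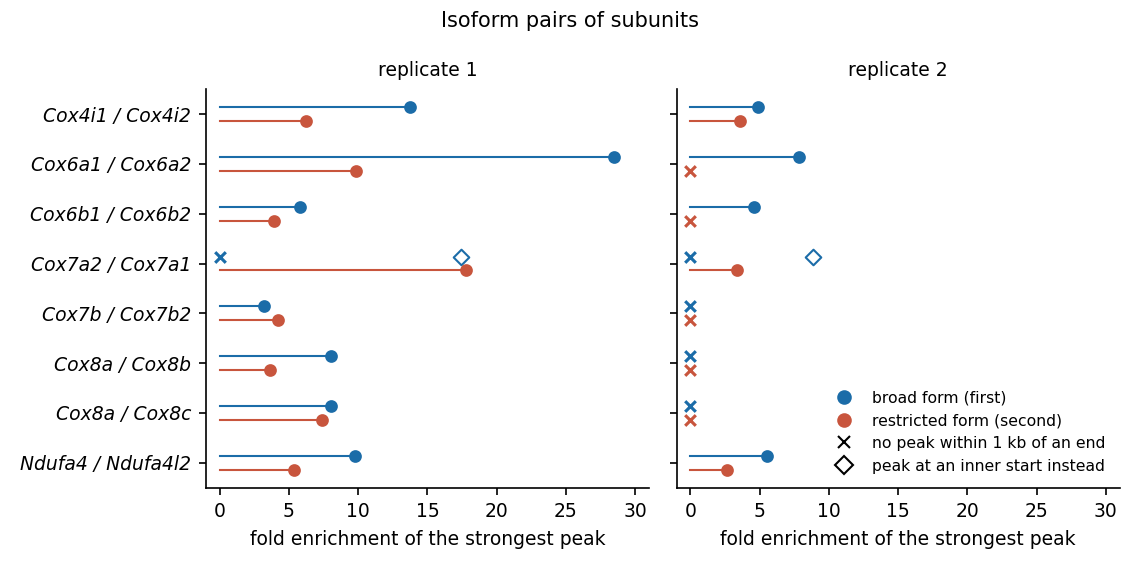
Fold enrichment of the strongest peak (x) in replicate 1 (left) and replicate 2 (right) for each pair of a broadly expressed subunit (blue, named first) and its restricted form (red); a cross marks no peak within 1 kb of an end and an open diamond a peak at a start inside the annotated gene. Only Cox4i2, Cox7a1 and Ndufa4l2 among the restricted forms have a replicate 2 value, from 2.65 to 3.56.

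Complex V, the ATP synthase, has a catalytic head, a stalk and a ring of c subunits in the membrane. A site in both replicates was found at 14 of 17 genes, and the strongest peaks overlapped at 13 of them. Atp5l (chr9:44913248-44920742), subunit g of the membrane part, had folds of 18.5 and 12.4 (15.5 ± 4.33, mean and SD, n = 2), with pileups of 69 and 67 fragments at 321 and 230 bp after its start. Its replicate 2 value was the highest of all members, and the libraries were close in pileup. Atp5g2 (chr15:102662868-102671047), 1 of 3 genes for the c subunit, had 30.2 and 7.14, the highest replicate 1 fold of all members. Atp5c1 (chr2:10056030-10080510), the rotating gamma subunit, had 10.9 and 8.13, at a peak shared with Kin.

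In the F1 part, which holds the catalytic head and the rotating gamma subunit, 4 of 5 genes had a site in both replicates. The alpha subunit Atp5a1 had 12.7 and 5.67, the epsilon subunit Atp5e 22.1 and 4.43, and the delta subunit Atp5d 6.75 and 4.08. These peaks were also at ends of Haus1, Prelid3b and Cbarp. The Atp5d summits lay at -2942 and -3007 bp from its nearest listed start. Within 1 kb of the listed Atp5d starts, only replicate 1 had a peak, of fold 8.46. The beta subunit Atp5b, which carries the catalytic sites, had a site in replicate 1 only (9.50). Of the c subunit genes, Atp5g1 had 11.1 and 6.09. Atp5g3 had a replicate 1 peak of 6.10 at its ends, and both libraries had a peak at its listed start, 1138 bp inside the gene, of folds 11.3 and 4.91. Atp5k (6.02) was the third complex V gene with a site in replicate 1 only.

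In the stalk and membrane part, Atp5o had 13.8 and 4.69, Atp5pb 12.8 and 6.09, and Atp5h 10.4 and 6.31. The small subunits Atp5md, Atp5j2 and Atp5mpl had 11.7 and 3.53, 9.53 and 3.73, and 7.13 and 4.96. The peaks of Atp5pb, Atp5h and Atp5md were also at ends of Wdr77, Kctd2 and Pdcd11. Atp5j, which is on the minus strand, overlaps at its start the start of Gabpa on the plus strand, the DNA-binding subunit of an ETS factor that regulates respiratory genes. Replicate 1 had its strongest peak there at fold 20.5, with a summit at -114 bp from the Gabpa start. Replicate 2 had its strongest peak at fold 4.96, with a summit at 897 bp from the Gabpa start. That replicate 2 peak overlapped a weaker replicate 1 peak of fold 8.44, with a summit at 925 bp. The strongest replicate 1 peak in turn overlapped a weaker replicate 2 peak of fold 3.26, with a summit at -399 bp. Both libraries thus had peaks at both positions, and their strongest summits were 1011 bp apart.

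**Figure D5:**
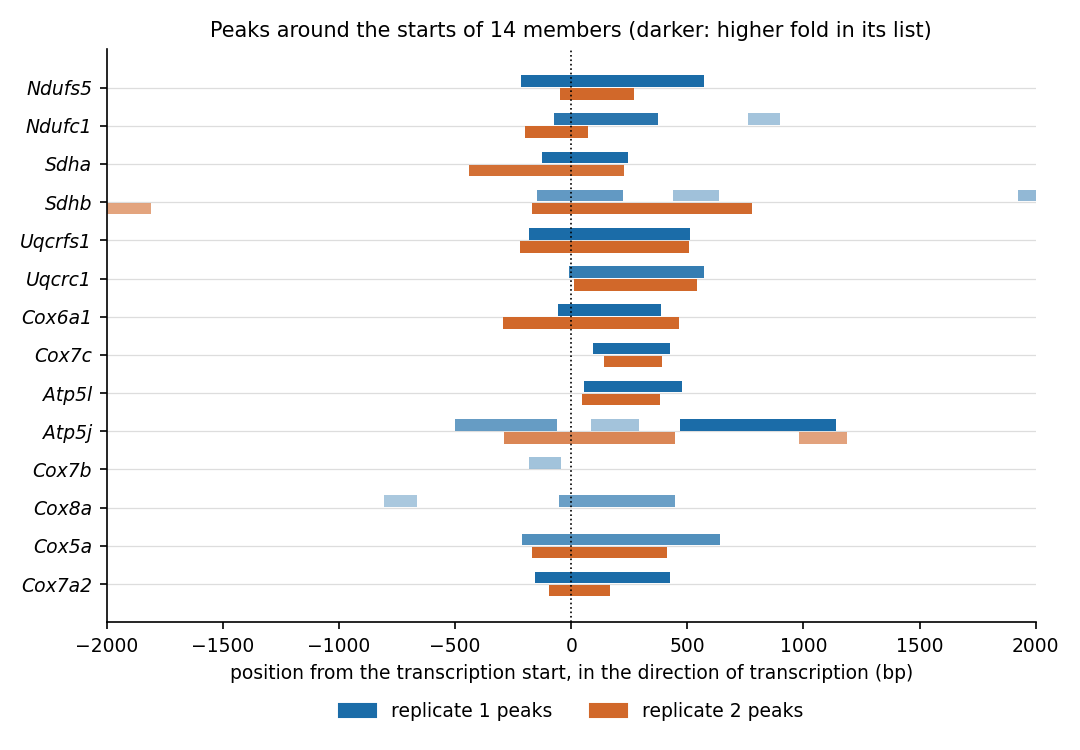
Peaks of replicate 1 (blue) and replicate 2 (orange) by distance from the transcription start (x, bp, in the direction of transcription) for 14 members, with darker bars for a higher fold within the list. Cox7b and Cox8a have replicate 1 peaks alone, and Cox5a and Cox7a2 have peaks of both libraries at a start inside the annotated gene.

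Sites were also listed at genes that build the chain or feed it. Of 48 assembly factor genes, 44 had a site in both replicates (91.7%, against 62.2% of all genes). The exceptions, with a peak in replicate 1 only, were Coa7 (23.1), Surf1 (10.7), Uqcc1 (6.02) and Pet100 (4.54). The median fold of the assembly factors was 12.9 in replicate 1 and 5.62 in replicate 2, against 10.1 and 5.36 over all genes with a site. With peaks at 1 gene only, 25 assembly factors kept a site in both replicates (52.1%, against 49.3% of all genes). Sdhaf1, which matures the iron-sulfur subunit of complex II, had 19.7 and 9.05, and Cox18, which inserts a core subunit of complex IV into the membrane, had 28.2 and 8.30. For comparison, 64 of 78 mitochondrial ribosomal protein genes (82.1%) and 31 of 40 proteasome subunit genes (77.5%) had a site in both replicates. Differences between these groups were not tested.

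Of 21 electron carriers and regulators, 18 had a site in both replicates (85.7%, against 62.2% of all genes). With peaks at 1 gene only, 14 did (66.7%, against 49.3% of all genes). Cytochrome c itself, Cycs, had folds of 19.4 and 4.89, and its testis form Cyct 12.96 and 5.50. The electron-transferring flavoprotein genes had 15.8 and 5.69 at Etfa, 22.2 and 7.58 at its dehydrogenase Etfdh, and 8.45 in replicate 1 only at Etfb. The Etfb peak was also at an end of Cldnd2. The Etfdh peaks lay 24162 bp apart at opposite ends of the gene. The replicate 1 Etfdh peak, at the far end, was also at an end of Ppid, and the replicate 2 peak at an end of 4930579G24Rik. Among factors that regulate respiratory genes, Nrf1 had 14.4 and 5.96, Gabpa 20.5 and 4.96, Yy1 10.4 and 4.81, Esrra 6.54 and 4.76, Ppargc1a 10.7 and 5.25, Ppargc1b 7.45 and 3.31 and Pprc1 13.5 and 7.61. The Ppargc1a peaks were at an annotated end of the gene, with summits at -548160 and -548299 bp from its nearest listed start. Esrrg had 10.8 in replicate 1 only, and Gabpb1 had no peak at its ends in either library. The factors of mitochondrial DNA maintenance and transcription had 16.2 and 7.80 at Tfam, 19.6 and 4.52 at Tfb1m, 16.8 and 10.4 at Tfb2m, 7.31 and 4.61 at Polrmt and 15.3 and 8.44 at Mterf1a. The strongest peaks of Polrmt lay at opposite ends, the replicate 1 peak also at an end of Hcn2, and those of Tfb1m did not overlap. The strongest peaks of Tfb2m, Esrra and Gabpa were also at ends of Cnst, Catsperz and Atp5j. Dhodh had 10.3 and 4.73 and Gpd2 10.6 and 7.15, both dehydrogenases that pass electrons to ubiquinone.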

How the data were processed

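Peak lists of 2 Foxp3 CUT&RUN libraries were analysed; the isotype IgG library was not used here, so no background was subtracted and no comparison between groups was made. The submitters' processing notes name CASAVA 1.4 and build mm10, with the aligner not given in the sources used here. The authors called peaks, per the file headers, with MACS 2.1.1.20160309 for each library, paired-end, at a q-value cutoff of 0.01, with no control library, an effective genome size of 1.87e+09 bp and all duplicates kept. The deposited values were the pileup (a signal, fragments at the summit), the −log10 of p-value and q-value, and the fold enrichment (a ratio to a background from the same library). Depths were 33294105 and 34898401 fragments.

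Genes came from a RefSeq table of GRCm38.p6 and starts and strands from its promoter table, in which 71 of 89 members were found. Peaks overlapping 1 kb around gene ends were counted with Python 3.11.15, pandas 2.3.3 and numpy 2.4.6, and intervals were 95% Clopper-Pearson (scipy 1.17.1), covering counting error only. Counting was checked on made-up peaks of known position. Genes are not replicates and no test was run over them; nothing in the labels ties the replicates to separate cultures or animals, so their spread may be technical. Genes named were the 3 highest by mean within-list percentile of fold in each complex (all 4 in complex II), every member without a site in both replicates, the isoform pairs, and the carriers and regulators; other members were named after their values were seen. The values of 1 member are not reported here. Members and lists were chosen with earlier results of these data known; counts by subunit role, by neighbouring genes and at starts inside the gene were added after the peak lists were read. Alternatives were other windows, stricter peaks, equal numbers of peaks, overlap of the replicates, each replicate alone, peaks at 1 gene only and starts only.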

Additional observations from a re-analysis of the deposited data

Results flagged for a closer look

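Peaks were also listed on the mitochondrial chromosome, which lies outside the comparison of nuclear genes: 11 in replicate 1 (fold 2.90 to 10.8) and 9 in replicate 2 (fold 1.70 to 4.31). Of the 13 mitochondrially encoded protein genes, 6 had a peak in replicate 1, 6 in replicate 2 and 5 in both. Those 5 were ND1, ND4 and ND5 of complex I, CYTB of complex III and COX1 of complex IV. The strongest over a protein gene was at ND4 in replicate 1, at fold 10.76 with 305 fragments, and replicate 2 had fold 2.41 with 239 fragments there. The highest replicate 1 fold on this chromosome, 10.80, was at a peak outside the protein genes. Mitochondrial DNA is present in many copies per cell and the isotype library was not used here, so the level without the Foxp3 antibody was not tested.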

How the results depend on the processing

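No paired analysis was possible because only the Foxp3 group was used here, which leaves no second group to pair with. Of 118 alternatives for the main results, 96 stayed within 1.5 times a count, or moved a share or median by less than its spread. The count of members with a site in both replicates (66) became 43 with 50% overlap of the replicates and 37 with peaks at 1 gene only; each replicate alone gave 67 to 84. With peaks at 1 gene only, complex I fell from 32 to 16, complex III from 7 to 4, complex V from 14 to 6 and assembly factors from 44 to 25. With 50% overlap, complex III gave 4, complex V 6 and the overlap of strongest peaks 35 (from 55). At starts only, complex III gave 3, with 5 of 9 genes in the table. Complex IV (9) gave 14 with 5000 bp windows, 5 with as many replicate 1 peaks as replicate 2 holds, by q or by fold, and 9 to 16 with each replicate alone. The excess over all genes, 11.9 percentage points, was 15.5 with 500 bp windows, 14.6 by summits, 16.3 with overlapping replicates, 7.76 with equal numbers of peaks by q, 4.65 with 50% overlap, 3.50 over whole genes, 8.28 to 12 with each replicate alone, and reversed to -7.74 with peaks at 1 gene only. The cause of these changes was not tested. Of 89 members, 20 kept a site in both replicates under all 11 settings of windows, thresholds, overlap and neighbours. Sites under 10 fragments in replicate 1 or 13 in replicate 2 were not listed at this depth.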

Other observations

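Over all 17273 promoters in the table, 62.0% of genes had a site in both replicates at their ends. The share was 88.7% of the 1153 genes whose promoter held the NRF1 word (GCGCA, any base, GCGC), 80.3% of the 2080 with the ETS word CCGGAAG and 77.5% of the 561 with the YY1 word AAGATGGC. It was 44.2% of the 2301 genes with any of the forkhead words, and 45.9%, 44.8% and 40.8% for the forms ending in AC, GC and TC. The NRF1 word itself holds CpG dinucleotides and the forkhead words hold none, and promoters with a site had a median of 20 CpG dinucleotides against 3 without. The part of CpG content in these shares was not tested.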
